A study of Mus musculus with 4 samples.

Results

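The genes of metallothioneins and zinc transport were 8 rows of the expression values, taken by symbol: Mt1, Mt2, Mtf1, Slc30a1, Slc39a1, Slc39a6, Slc39a10 and Slc39a14. All 8 were found among the 17013 genes listed, and all 8 were among the 12470 genes tested, those that reached 0.5 CPM (reads scaled to library size) in 2 or more of the 4 libraries. RNA was measured by bulk RNA sequencing in wild-type macrophages grown from mouse bone marrow, and the study took bone, marrow and abdominal fat from C57BL/6 male mice. The cells sat on Transwell inserts for 24 h above medium prepared from freeze-thawed abdominal fat. The control (Con, 2 libraries) received the middle layer of that preparation, and the high-fat group (Fat, 2 libraries) received its top fat layer. Artificial necrotic bone fluid (aNBF), an extract of freeze-thawed bone that carries molecules released by dying cells, was present in both groups, so no library shows macrophages without aNBF or without the fat preparation. The age of the mice is not given in the sources used here, and nothing says whether the 2 libraries of a group came from separate animals or cultures, so the p-values measure only the spread between these libraries.

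Metallothioneins are small cysteine-rich proteins that bind zinc and copper and buffer their free levels. Their genes are switched on by the zinc-sensing transcription factor MTF-1, encoded by Mtf1, which binds metal response elements in their promoters, and they also respond to glucocorticoids. Zinc leaves the cytosol through transporters of the ZnT family (Slc30a genes) and enters it through those of the ZIP family (Slc39a genes). In macrophages these proteins take part in withholding zinc from microbes or loading it onto them, and zinc supply also affects inflammatory signaling.

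The promoters of Mt1, Mt2 and Slc30a1 are shown because they held the core letters of the metal response element, out of the 6 members whose windows are reported. No window is reported here for Slc39a6 or Slc39a14, so nothing is said of the promoter of the member that rose. Each run gives the 250 bases before the annotated start of the gene, 5′ to 3′ on the gene's own strand, from RefSeq on build GRCm38.p6, and capitals mark the matches.

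Mt1, chr8:94178839-94179088, plus strand: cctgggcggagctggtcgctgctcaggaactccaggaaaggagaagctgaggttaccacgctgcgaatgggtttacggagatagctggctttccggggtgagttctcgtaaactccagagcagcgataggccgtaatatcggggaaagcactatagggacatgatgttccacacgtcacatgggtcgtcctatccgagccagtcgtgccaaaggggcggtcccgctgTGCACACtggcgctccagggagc

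Mt2, chr8:94172368-94172617, plus strand: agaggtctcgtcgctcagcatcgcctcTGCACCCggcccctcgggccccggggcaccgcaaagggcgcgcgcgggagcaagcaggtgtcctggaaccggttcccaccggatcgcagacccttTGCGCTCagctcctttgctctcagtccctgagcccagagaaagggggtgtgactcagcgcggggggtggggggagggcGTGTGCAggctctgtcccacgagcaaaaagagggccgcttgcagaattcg

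Slc30a1, chr1:191906531-191906780, plus strand: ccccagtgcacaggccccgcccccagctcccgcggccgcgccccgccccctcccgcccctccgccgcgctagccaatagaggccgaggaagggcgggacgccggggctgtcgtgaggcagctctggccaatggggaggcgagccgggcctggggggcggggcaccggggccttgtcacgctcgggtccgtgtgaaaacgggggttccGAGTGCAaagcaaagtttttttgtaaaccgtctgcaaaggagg

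Mt1 around its start, chr8:94179088-94179117, plus strand: ctcTGCACTCcgcccgaaaagTGCGCTCgg

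The motif searched was TGCACNC or TGCGCNC on both strands, in windows from 250 bases before to 50 bases after the start, and each occurrence counted. Mt2 held 4 matches, of which 3 lay before the start. Mt1 held 3, of which 1 lay before the annotated start and the other 2 stand in the short stretch around it. Whether transcription in these cells begins at the annotated starts was not tested, so bases outside these windows may also belong to the promoters. Slc30a1, the ZnT exporter of the plasma membrane and a textbook target of MTF-1, held 2, of which 1 lay before the start. The windows of Mtf1, Slc39a1 and Slc39a10 held 0. Among 32851 RefSeq windows of 300 bases, 25.7% held a match, 7.11% held at least 2, 1.97% at least 3 and 0.517% at least 4. A match of these letters is not evidence of binding, and no match says only that the letters are not in that window.

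The library totals were 33573852 and 37881292 reads in Con and 37534565 and 40785872 reads in Fat, so that 1 read stood for 0.0244 to 0.0295 CPM. Libraries of different groups differed more than libraries of the same group (chi-square per degree of freedom between read counts, 12.4 and 12.8 within groups, 36.7 to 73.3 between them). Of the 7 macrophage markers analysed, 0 rose and 2 fell in Fat (Fcgr1 and Mertk), 28.6% beside 9.0% of all tested genes called. Cd68 and Itgam overlapped between the groups, and the other 5 lay lower in both Fat libraries. The log2 fold change was -0.88 for Fcgr1 and -0.31 for Mertk. It was -0.21 for Csf1r and -0.15 for Cd14, which did not pass (adjusted p = 0.190 and 0.199). Lyz2, the most abundant, lay at 28720.5 and 26818.8 CPM in Con and at 21516.1 and 20346.7 CPM in Fat (adjusted p = 0.209), and made most of the gap in the summed level, 32779 to 34746 CPM in Con and 25918 to 27440 CPM in Fat. The other 6 markers summed to 6026 and 5960 CPM in Con and to 5924 and 5571 CPM in Fat. The 8 adipocyte markers summed to 0.177 and 0.187 CPM in Con and to 11.3 and 5.85 CPM in Fat. Most of the Fat sums was Car3 (7.21 and 3.39 CPM). Adipoq, Lep and Adrb3 had 0 reads in both Con libraries. In Fat they had 28 and 14, 30 and 18, and 1 and 2 reads. Only Car3 and Cidec passed the filter, and both were called higher. Summed T cell markers were 3.84 to 4.84 CPM in Con and 2.32 to 2.60 CPM in Fat, and the summed B cell markers were 22.5 to 23.5 CPM in Con and 18.0 to 21.8 CPM in Fat. The summed neutrophil and stromal levels overlapped, but 3 of 4 neutrophil (75%) and 3 of 5 stromal markers (60%) lay lower in both Fat libraries. Across all tested genes 55.6% did not overlap, in either direction. Of these neutrophil and stromal markers the stromal gene Dcn fell (log2 fold change -0.82, adjusted p = 0.0358). The endothelial markers summed to 4.58 to 6.28 CPM in Con and 6.89 to 7.56 CPM in Fat. Most of this was Pecam1, at 5.57 and 3.49 CPM in Con and 5.71 and 6.61 CPM in Fat. Pecam1 and Kdr did not pass (adjusted p = 0.237 and 0.620), and Cdh5 and Tek were under the filter. Cdh5 overlapped between the groups, whereas Kdr and Tek lay higher in both Fat libraries. The part of these marker differences in the results below was not tested.

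The question asked of these genes was whether macrophages given the fat layer differed from Con in zinc storage and transport at the RNA level. Slc39a6, which encodes the zinc importer ZIP6, rose in Fat, and it was the only member that passed the test. The metallothioneins Mt1 and Mt2, the regulator Mtf1, the exporter Slc30a1 and the other 3 importers did not pass it. Thus 1 of the 8 members was called higher (12.5%) and 0 lower, in limma's test with Benjamini-Hochberg adjustment over all tested genes and a threshold of 0.05. Across all tested genes 9.0% were called, 3.99% higher and 5.0% lower, so a single gene among 8 lies near the background. In 6 of the 8 members the libraries of the groups did not overlap, 4 of them higher and 2 lower in Fat, beside 55.6% of all tested genes that did not overlap. The median log2 fold change was 0.14 over the members and 0.01 over all tested genes. In bulk samples fewer cells of a type and less RNA per cell cannot be told apart, and neither can RNA carried in with the fat be told from RNA made by the macrophages.

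**Figure D1:**
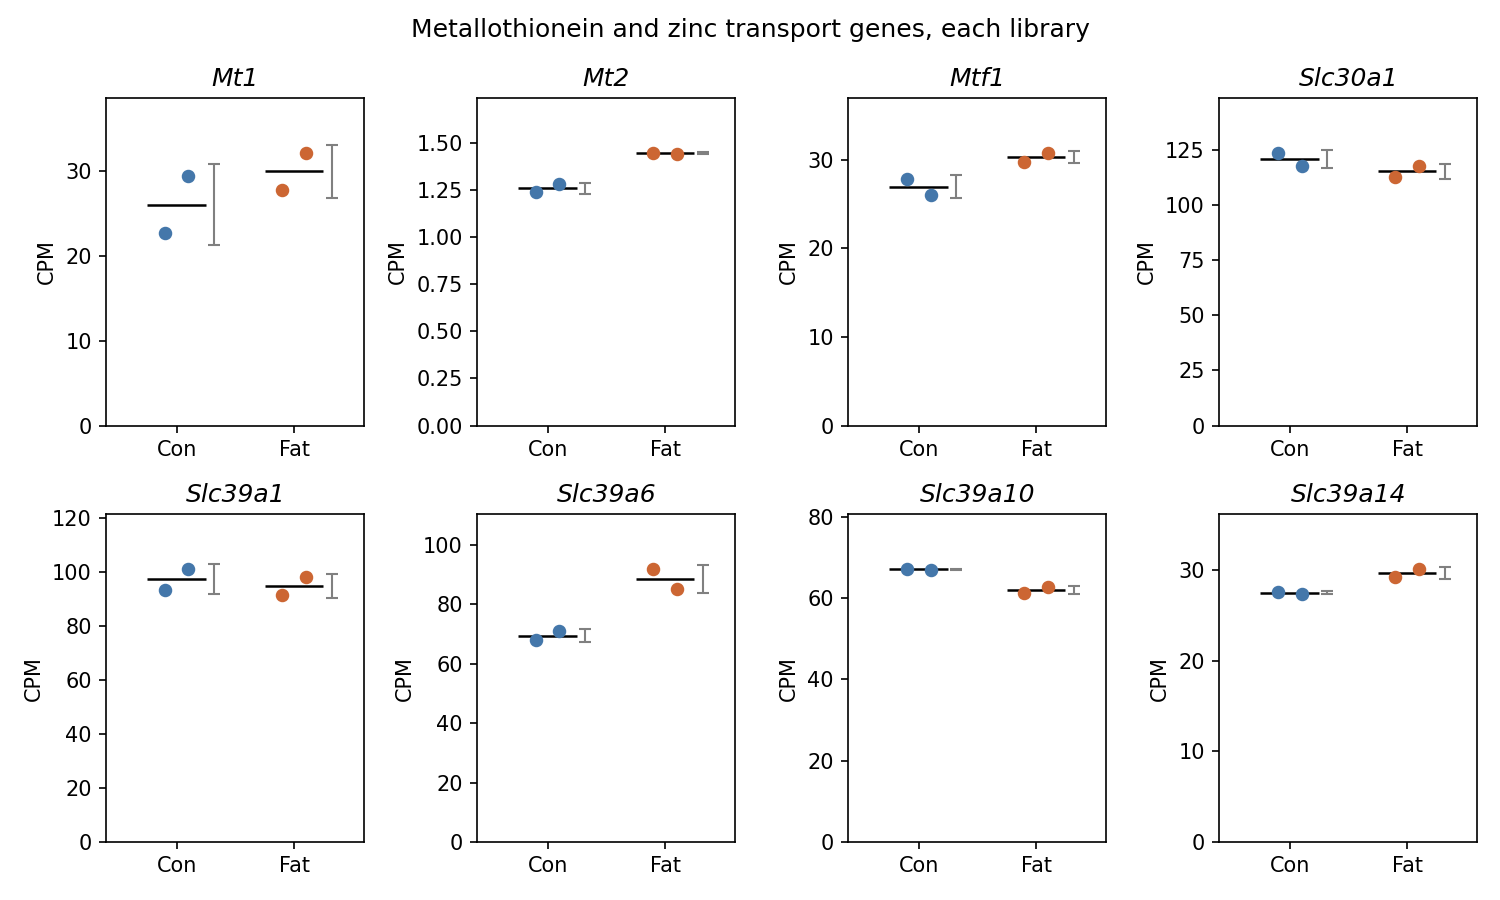
CPM of the 8 genes in each library, with Con in blue and Fat in orange; the line is the group mean and the grey bar the mean ± SD (n = 2), and every axis starts at 0. Slc39a6 lay at 67.9 and 71.1 CPM in Con and at 92.0 and 85.3 CPM in Fat, whereas the Mt1 and Slc39a1 libraries overlapped between the groups.

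The metallothioneins were considered first. Mt1, the more abundant of the broadly expressed pair, was measured at 22.6 and 29.3 CPM in Con and at 27.7 and 32.1 CPM in Fat. The groups overlapped, since the second Con library lay above the first Fat library. The means were 26.0 ± 4.74 CPM (SD, n = 2) in Con and 29.9 ± 3.13 CPM in Fat, a difference of 3.92 CPM that was smaller than the SD of Con. The log2 fold change was 0.21 (SE 0.13, 95% interval -0.09 to 0.51, adjusted p = 0.375), which corresponds to a fold of 0.939 to 1.42.

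Mt2 was near the lower end of the tested range. It was measured at 1.24 and 1.28 CPM in Con and at 1.45 and 1.44 CPM in Fat, from 42, 48, 54 and 59 reads. Both Fat libraries lay above both Con libraries, and the SDs were 0.0291 and 0.00538 CPM, but the fit across all genes gives a gene of so few reads a larger error than these SDs. The log2 fold change was 0.18 (SE 0.20, 95% interval -0.28 to 0.65, adjusted p = 0.628).

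In reads, Mt1 exceeded Mt2 by 18.3 and 22.9 times in Con and by 19.1 and 22.3 times in Fat. The ratio thus varied as much within a group as between the groups. Mt1 made up 94.8% to 95.8% of their summed reads. The summed level was 23.9 and 30.6 CPM in Con and 29.1 and 33.6 CPM in Fat, a log2 ratio of group means of 0.20, given with no test. The ratio varied with the libraries used, at 0.03 without Con replicate 1, 0.39 without Con replicate 2, 0.30 without Fat replicate 1 and 0.10 without Fat replicate 2. In the GENCODE mouse transcripts of release M21, 0% of the 75-base windows of either gene matched another gene within 2 mismatches, so reads of the length sequenced can be told apart between them.

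Mt3, the metallothionein best known from neurons, was the third family member measured. It was measured at 0.560 and 0.426 CPM in Con and at 0.911 and 0.829 CPM in Fat (19, 16, 34 and 34 reads). The log2 fold change was 0.72 (SE 0.28, adjusted p = 0.168), and it did not pass. The size depended on the setting: it was 0.33 with a pseudocount of 1 CPM, below the 0.35 of Slc39a6 there, and 0.33 to 0.88 over 12 alternatives. It passed in 1 of them, with the values scaled for gene length (0.83, adjusted p = 0.0459). Of the 3 metallothioneins tested 0 were called, beside 9.0% of all tested genes. At an unadjusted p under 0.05 there was 1 (Mt3), beside 24.1% of all tested genes. Mt4 was not analysed here.

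Mtf1, the gene of the zinc sensor, was measured at 27.9 and 26.1 CPM in Con and at 29.8 and 30.8 CPM in Fat. Both Fat libraries were higher than both Con libraries. The means were 27.0 ± 1.27 and 30.3 ± 0.718 CPM, 12.4% apart. The log2 fold change was 0.17 (SE 0.07, 95% interval 0.01 to 0.33), with an unadjusted p of 0.0438 and an adjusted p of 0.192, so it did not pass the test. A gene on the opposite strand, 1110065P20Rik, overlaps its exons and averaged 4.51 CPM. Whether reads were counted by strand is not given in the sources used here, and without strand the reads of such partners cannot be told apart.

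The exporter Slc30a1 was measured at 123.6 and 117.7 CPM in Con and at 112.8 and 117.5 CPM in Fat. The groups did not overlap, but the lower Con library and the higher Fat library were nearly equal. The means were 120.6 ± 4.20 and 115.1 ± 3.36 CPM, and the log2 fold change was -0.07 (SE 0.06, 95% interval -0.20 to 0.06, adjusted p = 0.521). The interval corresponds to a fold of 0.872 to 1.05, for these libraries only. Of the 6 ZnT genes tested 0 were called, beside 9.0% of all tested genes. At an unadjusted p under 0.05 there were 0, beside 24.1% of all tested genes. With 6 genes, counts of 0 cannot be told from these shares. The log2 fold changes of the 6 ran from -0.10 to 0.09 with a median of -0.02. Slc30a2 (3, 1, 1 and 0 reads) and Slc30a3 (1, 0, 0 and 0 reads) had too few reads to test, and Slc30a8 and Slc30a10 were not analysed here.

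Slc39a6 was the member that rose. ZIP6, its product, carries zinc in at the plasma membrane and is known to pair with ZIP10, the product of Slc39a10. It was measured at 67.9 and 71.1 CPM in Con and at 92.0 and 85.3 CPM in Fat, from 2304, 2669, 3434 and 3497 reads. Both Fat libraries were clearly above both Con libraries. The means were 69.5 ± 2.27 and 88.6 ± 4.74 CPM, a difference of 19.1 CPM or 27.5%, and the log2 fold change was 0.35 (SE 0.06, 95% interval 0.20 to 0.49, adjusted p = 0.0170). The interval corresponds to a fold of 1.15 to 1.41. Among the 498 genes called higher, 343 had a larger log2 fold change, and its p ranked 198 among them.

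The call was lost without the first Fat library. With that library left out the log2 fold change was 0.29, and without the first Con library it was 0.32. Without the second Con library it was 0.38, and without the second Fat library 0.40. A fit with 1 library left in a group cannot tell how secure the call is. The edgeR and DESeq2 tests on recovered reads called it as well, and limma without a mean-variance trend did not (adjusted p = 0.117).

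**Figure D2:**
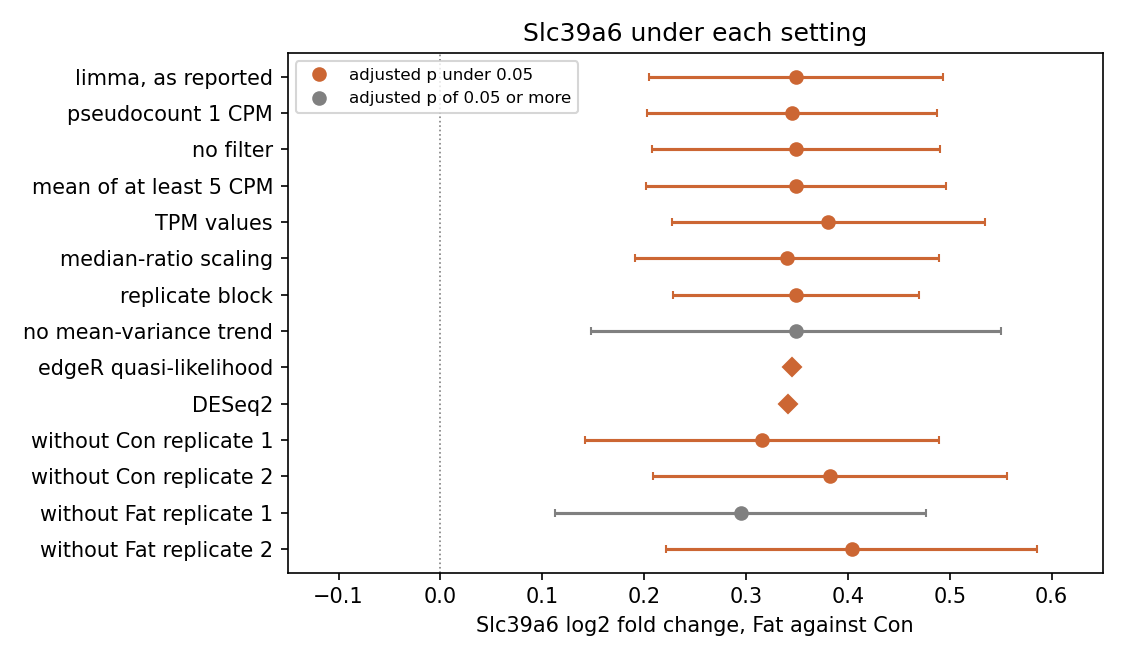
Log2 fold change of Slc39a6 (Fat against Con, horizontal axis) under the reported limma test and 13 alternatives, with 95% intervals where limma gives them and diamonds for edgeR and DESeq2; orange marks an adjusted p under 0.05. All values lie between 0.29 and 0.40, and the 2 grey ones are the test with no mean-variance trend and the test without Fat replicate 1.

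The partner importer Slc39a10, whose transcription MTF-1 is known to repress when zinc is plentiful, did not pass the test. It was measured at 67.2 and 66.9 CPM in Con and at 61.2 and 62.6 CPM in Fat. Both Fat libraries lay below both Con libraries, with means of 67.0 ± 0.203 and 61.9 ± 1.01 CPM, 7.68% lower in Fat. The log2 fold change was -0.12 (SE 0.05, 95% interval -0.24 to 0.01, unadjusted p = 0.0690, adjusted p = 0.249). Of its 75-base windows 1.65% matched the pseudogene Gm6801 within 2 mismatches.

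Slc39a14 encodes ZIP14, which also carries iron and manganese and is induced in liver by inflammatory signals. It was measured at 27.6 and 27.4 CPM in Con and at 29.3 and 30.2 CPM in Fat. The groups did not overlap, and the means were 27.5 ± 0.159 and 29.7 ± 0.648 CPM. The log2 fold change was 0.11 (SE 0.06, 95% interval -0.04 to 0.26, adjusted p = 0.353).

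Slc39a1, the gene of the widely expressed plasma membrane importer ZIP1, was measured at 93.2 and 101.0 CPM in Con and at 91.4 and 97.8 CPM in Fat. The groups overlapped, and the log2 fold change was -0.04 (SE 0.06, 95% interval -0.19 to 0.11, adjusted p = 0.779). Its sign turned when either the second Con or the first Fat library was left out (0.02 and 0.01). Of its 75-base windows 31.1% matched the pseudogene Slc39a1-ps within 2 mismatches, so its level is uncertain by the reads that such a copy could share.

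**Figure D3:**
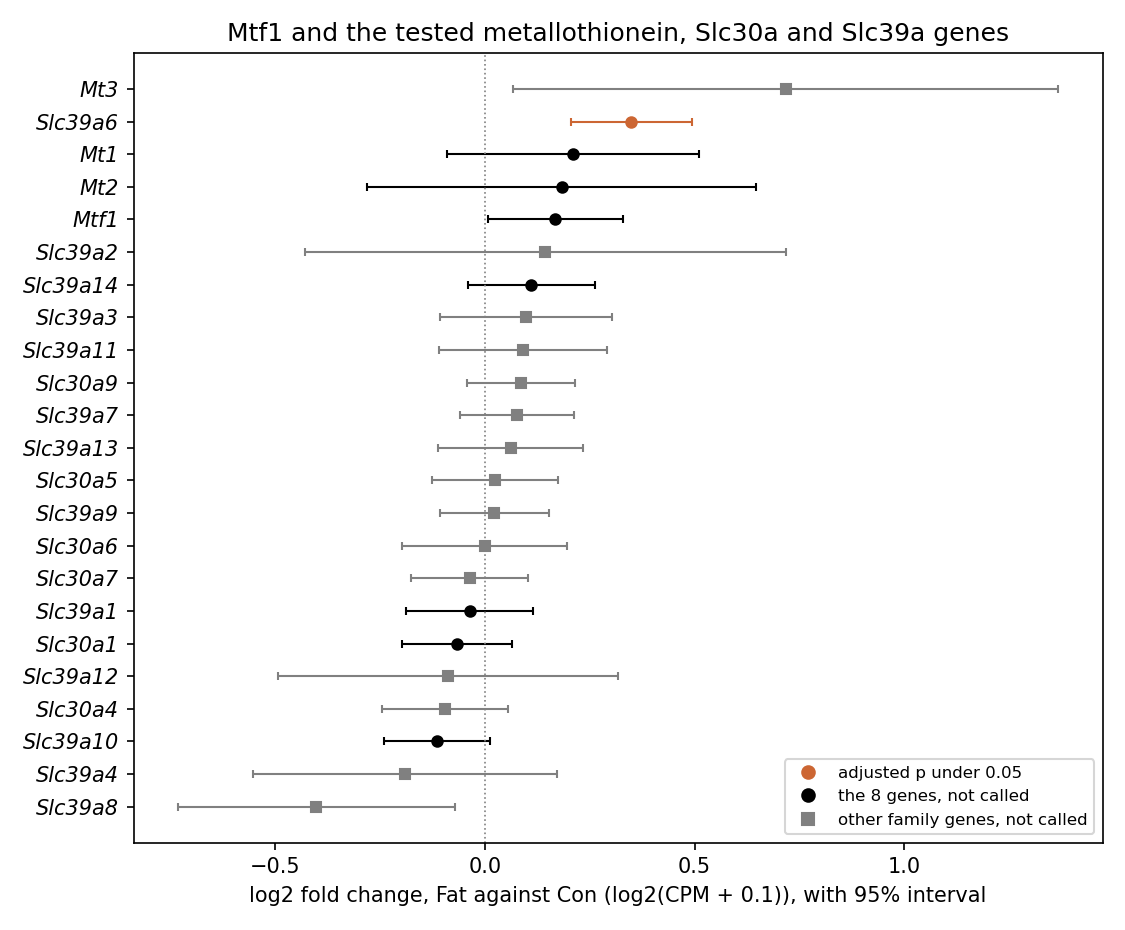
Log2 fold change (Fat against Con, on log2(CPM + 0.1), horizontal axis) with its 95% interval for Mtf1 and the 22 tested metallothionein, Slc30a and Slc39a genes, ordered by value. Slc39a6 (orange, 0.35) was the only gene with an adjusted p under 0.05, and the low-count Mt3 (0.72) and Slc39a8 (-0.40) had the values farthest from 0.

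Across the ZIP family, 13 genes were tested, 1 was called higher (Slc39a6, 7.69% beside 9.0% of all tested genes) and 0 lower. Their log2 fold changes ran from -0.40 to 0.35, with a median of 0.06, and 8 of 13 were positive. Slc39a8, an importer known to be induced by NF-κB, was measured at 4.87 and 5.52 CPM in Con and at 3.62 and 4.20 CPM in Fat. Its log2 fold change of -0.40 (SE 0.14, unadjusted p = 0.0234, adjusted p = 0.133) did not pass the test. Slc39a5 was not analysed here. Of the 22 genes of the 3 families tested, 1 was called, 3 had an unadjusted p under 0.05 (Mt3, Slc39a6 and Slc39a8), 13 had a positive log2 fold change and 11 had groups that did not overlap. As shares these were 4.55% called beside 9.0% of all tested genes, 13.6% beside 24.1% at an unadjusted p under 0.05, 59.1% beside 53.6% positive, and 50% beside 55.6% not overlapping. The median over these 22 genes was 0.04 beside 0.01 over all tested genes.

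Levels between genes were compared in TPM, which are reads scaled for gene length as well as library size. Mt1 was highest among the 8 members, at 91.4 to 131.2 TPM over the 4 libraries, and higher than 90.0% of the tested genes. Slc39a1 followed at 86.5 to 92.5 TPM, and although these ranges overlapped, Mt1 was higher in 4 of 4 libraries. Slc30a1 (47.8 to 51.7 TPM) and Slc39a6 (38.3 to 52.5 TPM) came next and overlapped, with Slc30a1 higher in 3 of 4 libraries. The exception was the first Fat library, in which Slc39a6 reached 52.5 TPM. Below them, with no overlap between neighbours, were Slc39a10 (mean 28.5 TPM), Slc39a14 (12.0 TPM), Mtf1 (8.23 TPM) and Mt2 (5.33 TPM). Mt2, at 5.33 TPM, was higher than 25.7% of the tested genes.

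As a share of the summed TPM of the 13 ZIP genes, Slc39a6 held 9.33% and 9.28% in Con and 12.0% and 10.8% in Fat. Slc39a10 held 7.22% and 6.83% in Con and 6.25% and 6.17% in Fat. The largest share in every library belonged to Slc39a7 (30.2% to 31.1%), whose product releases zinc from the endoplasmic reticulum, followed by Slc39a1 (19.8% to 21.8%). For Slc39a7, 72.3% of the 75-base windows matched Gm20427, a gene model that overlaps it on the same strand. Gm20427 is not among the genes listed, and whether it affected the value of Slc39a7 was not tested. Among the ZnT genes, Slc30a1 (26.0% to 28.5%) and Slc30a5 (26.8% to 28.7%), which loads zinc into the secretory pathway, held the largest shares. The summed ZIP level was 410 and 424 TPM in Con and 437 and 453 TPM in Fat, and the summed ZnT level was 181 and 174 TPM in Con and 184 and 179 TPM in Fat. These sums were not tested.

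**Figure D4:**
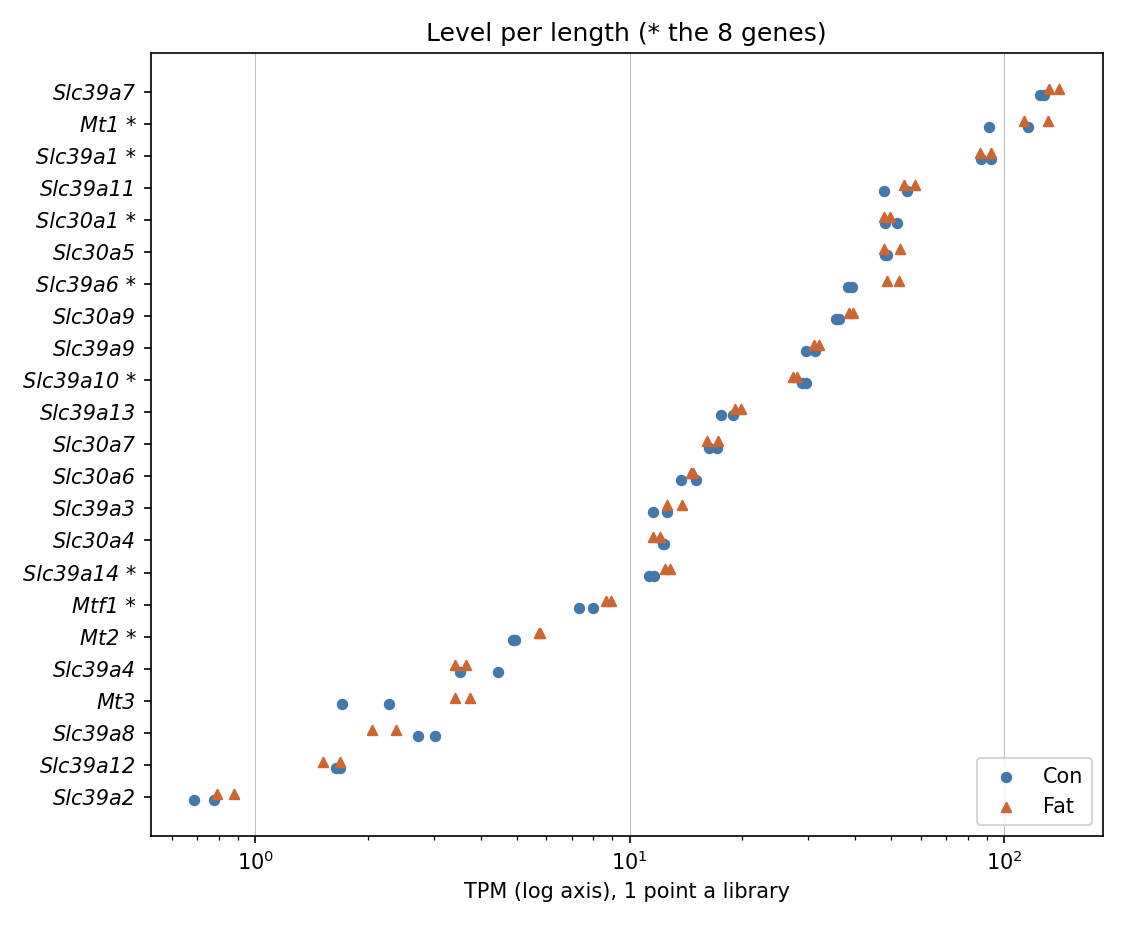
TPM in each library (log axis) of Mtf1 and the 22 tested metallothionein, Slc30a and Slc39a genes, ordered by mean, with blue circles for Con, orange triangles for Fat and an asterisk on the 8 members. The levels run from under 1 TPM for Slc39a2 to over 100 TPM for Slc39a7, with Mt1 at 91.4 to 131.2 TPM. The separation of circles from triangles for Slc39a6 (38.3 and 39.3 against 52.5 and 48.7 TPM) is small beside the spread between genes.

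Metallothioneins also bind copper, and their genes respond to glucocorticoids, so a list of each kind was counted. Of the 7 copper handling genes tested, 1 rose, 1 fell and 5 were not called, with a median log2 fold change of 0.03. Atp7a, the pump that moves copper into the secretory pathway and out of the cell, rose from 118.4 ± 1.26 to 142.0 ± 1.40 CPM (log2 fold change 0.26, SE 0.05, adjusted p = 0.0229). Slc31a2, which encodes a relative of the copper importer that is found on internal membranes, fell from 121.2 ± 10.3 to 85.6 ± 9.52 CPM (log2 fold change -0.50, SE 0.09, adjusted p = 0.0176). The importer gene Slc31a1 itself lay at 122.9 and 117.2 CPM in Con and at 114.9 and 100.7 CPM in Fat, and its log2 fold change of -0.16 did not pass (adjusted p = 0.242). Atp7b had at most 5 reads in a library and was not tested.

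Of the 7 glucocorticoid-responsive genes tested, 1 rose, 1 fell and 5 were not called, with a median log2 fold change of 0.08. Per1, a clock gene, rose from 21.5 ± 0.549 to 28.2 ± 1.83 CPM (log2 fold change 0.39, SE 0.08, adjusted p = 0.0226). Tsc22d3, which encodes the anti-inflammatory protein GILZ, fell from 84.2 ± 1.74 to 67.8 ± 0.0685 CPM (log2 fold change -0.31, SE 0.05, adjusted p = 0.0157). Zbtb16 was under the filter. In each list 2 of 7 genes were called, in opposite directions, beside 9.0% of all tested genes. The calls of Per1 and Tsc22d3 were lost without Con replicate 1 (adjusted p = 0.0689 and 0.0502) and without Fat replicate 2 (0.118 and 0.0632). The call of Atp7a was lost without Con replicate 1, Fat replicate 1 or Fat replicate 2 (adjusted p of 0.0666, 0.0620 and 0.115).

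The genes whose pattern over the 4 libraries was most like that of Slc39a6, by Euclidean distance between centred log2(CPM + 0.1) values among 12469 genes, were Azin1 (0.0117), Pgm2 (0.0184), the row listed as Mir1903 (0.0193), Lins (0.0213) and Herc3 (0.0243). Azin1 encodes an inhibitor of the antizyme that limits polyamine synthesis, and Pgm2 encodes a sugar phosphate mutase. Their log2 fold changes lay between 0.33 and 0.36, which follows from picking them for likeness to Slc39a6. Azin1, Pgm2 and Herc3 were called higher (adjusted p of 0.0174, 0.0211 and 0.0242). These calls are no separate result, since the genes were picked for likeness to a called gene. With 4 libraries in 2 groups, such a likeness describes only these libraries.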

How the data were processed

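Libraries were made with a stranded mRNA kit and read singly over 75 bases. The aligner and counter are not given in the sources used here, and GRCm39 is the build named in the submitters' processing notes. The authors deposited expression per gene as CPM (reads scaled to library size) and as TPM (also scaled for gene length). Whole reads were recovered from the CPM for 100% of values within 0.01 read. Groups followed the sample labels. Fat was compared with Con by limma 3.58.1 (R 4.3.3), with a mean-variance trend, on log2(CPM + 0.1), which understates changes of low genes. Tests were two-sided and took the 12470 genes that reached 0.5 CPM in 2 or more libraries, with Benjamini-Hochberg adjustment and a threshold of 0.05. A log2 fold change of 1 simulated for 200 of these genes was recovered by limma in 95%, with 4 false calls. The changed genes were drawn only from those above a read limit, and every gene was given the same dispersion. The largest change of a member was 0.35, so the 95% does not tell how often changes of the members' size would be found. Alternatives were another pseudocount, other filters, TPM, median-ratio scaling, no trend, replicate number as a block, edgeR 4.0.16 and DESeq2 1.42.0 on recovered reads, and each library left out.

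The genes named were the 8 members, any gene called in the lists of metallothioneins, Slc30a, Slc39a, copper handling and glucocorticoid-responsive genes, zinc family genes under the filter or not analysed, cell type markers, and the 5 genes most like the member with the largest change. The members and lists were chosen with earlier results of these data known. Mt3, Slc39a2, Slc39a7, Slc39a8, Slc30a5 and Slc31a1, and the clauses on Atp7b and Zbtb16, were added after their values were seen. Shared sequence was searched in GENCODE M21 transcripts, which belong to another build than the deposited values, so no gene coordinates are given from it.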

Additional observations from a re-analysis of the deposited data

How the results depend on the processing

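Over 13 alternatives Slc39a6 kept a positive log2 fold change (0.29 to 0.40) and was called in 11, with adjusted p from 3.63e-05 to 0.117. The members called were 2 with the replicate block (Mt1 and Slc39a6), 0 with no mean-variance trend, and 0 to 1 when a library was left out, 0 being without Fat replicate 1. The zinc family genes called were 2 with TPM (Mt3 and Slc39a6), 3 with the replicate block (Mt1 and Slc39a6 higher, Slc39a8 lower), 0 with no mean-variance trend, and 0 to 1 when a library was left out. Under limma as reported, 2 members and 3 family genes had an unadjusted p under 0.05 (24.1% of all tested genes did), and edgeR and DESeq2 each called 1 member. Slc39a1 turned sign without Con replicate 2 (0.02163) and without Fat replicate 1 (0.01205), within -0.09499 to 0.02163 over the libraries left out, and was called in none. Mt1 kept its sign in 13 of 13 (0.02 to 0.40), as did Mtf1 (0.12 to 0.22), Slc30a1 (-0.10 to -0.03), Slc39a10 (-0.13 to -0.08) and Slc39a14 (0.09 to 0.14), and Mt2 kept it in 12 of 12 (0.11 to 0.22), as did Mt3 (0.33 to 0.88). Of these, Mt1 was called once, with the block (adjusted p = 0.0354), Mt3 once, with TPM, and the others in none. With no mean-variance trend the calls of Slc31a2, Atp7a, Per1 and Tsc22d3 were lost too (adjusted p of 0.130, 0.130, 0.109 and 0.108). The causes were not tested.

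The groups share replicate numbers, but no label says what a number stands for. The deviations of libraries with the same number had a correlation of 0.20 over genes. With only 2 pairs this cannot tell whether the numbers mark a shared experiment. The test as reported used no block, since the study's methods name none. Mt1 was higher in Fat within each number (22.6 and 27.7 CPM for number 1, 29.3 and 32.1 CPM for number 2). With the replicate block the calls over all genes went from 1122 to 2520.

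Over all genes, calls were 1122 as reported (498 higher, 624 lower), 791 with TPM (425 higher, 366 lower), 31 with no mean-variance trend, 1138 with edgeR and 1060 with DESeq2. Without Con replicate 1, Con replicate 2, Fat replicate 1 and Fat replicate 2 they were 666, 1131, 1021 and 529. Where a group is left with 1 library, that library is assumed to vary like the other group. With 2 libraries a group, changes of the size seen for Mtf1 or Slc39a10 could not be settled, and the reads of Mt2 and Mt3 limit both.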
